A study of Mus musculus with 9 samples.

Results

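The genes described here are 7 Usher syndrome genes (Ush1c, Ush1g, Cdh23, Pcdh15, Gpr98, Clrn1 and Dfnb31) and 2 Crumbs genes (Crb1 and Crb2), 9 of the 31829 gene names on the array. The genes were chosen with earlier results of these data known. Their probes were taken by symbol alone, as every non-control probe that carries a listed name or its newer synonym (Adgrv1 for Gpr98, Whrn for Dfnb31). This gave 19 of 39429 probes. Expression was measured in 3 adjacent layers of the mouse eye: the choroid (CH, the vascular bed behind the retina), the retinal pigment epithelium (RPE, a pigmented monolayer that nourishes the photoreceptors) and the photoreceptors (PR). Each layer was represented by 3 arrays, all of healthy female C57BL/6 mice aged 6 months (± 2 weeks) per the labels. The methods name a slightly younger age. Each array held the RNA of 1 eye, laser dissected from frozen sections, amplified, labelled with Cy5, and hybridised against a common choroid/RPE reference in Cy3. Per the methods the mice belonged to the substrain C57BL/6JOlaHsd, which does not carry the rd8 allele of Crb1. All values below are log2 ratios of tissue over reference, or differences between 2 such means, unless another scale is named.

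Usher syndrome is an inherited loss of hearing and, slowly, of vision. Its type 1, 2 and 3 genes encode cadherins, very large membrane proteins and the scaffolds that hold them to actin. In the hair cells of the inner ear these proteins form the links between stereocilia, and in photoreceptors they sit at the membrane around the base of the connecting cilium and at the synapse. Crumbs proteins are transmembrane organisers of the apical pole of epithelia. In the retina they act above the adherens junctions that join photoreceptors to Müller glia, and loss of CRB1 causes retinal dystrophy in people.

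Rod, RPE and fibroblast markers averaged highest on the PR, RPE and CH arrays in turn. The 9 rod markers averaged log2 ratios of 3.35 to 3.57 on the PR arrays, -0.52 to 0.36 on the RPE arrays and -1.16 to -0.42 on the CH arrays, and all 9 were well above background on every array of every layer. The 7 RPE markers averaged 1.71 to 2.23 on the RPE arrays, 0.44 to 1.07 on the CH arrays and -2.89 to -2.64 on the PR arrays. The 6 fibroblast markers averaged 1.27 to 1.69 on the CH arrays and -1.15 to -0.80 on the RPE arrays. On the PR arrays 8 of the 10 rod marker probes were saturated in Cy5 on at least 1 array. So were 6 of the 8 RPE marker probes on the RPE arrays, and 3 of them on the CH arrays. Saturation of the reference in Cy3 was not counted, so these averages are inexact there. Rod marker RNA was thus measurable in the RPE and CH samples too, and its part in the RPE and CH values below was not tested. Of the 7 RPE markers, 6 were called higher in RPE than in both other layers, and Best1 was not. The 7 endothelium markers averaged 1.10 to 1.29 on the RPE arrays and 0.82 to 1.54 on the CH arrays. None was called between RPE and CH. The 6 pigment cell markers averaged -0.67 to -0.19 on the RPE arrays and 0.60 to 0.88 on the CH arrays, with 4 called higher in CH. The part of such RNA in the RPE against CH values was not tested. In whole layers, fewer cells of a type and less RNA per cell cannot be told apart. RPE 2 stood apart, with 91.7% of probes well above background in Cy5 against 62.1% to 71.3% on the other arrays. It was also the array concerned wherever a member probe was well above background on a single RPE array. Those probes were Cdh23, Pcdh15 probes 5 and 6, and probe 2 of Gpr98 and Dfnb31. Leaving RPE 2 out changed none of the 57 calls on member probes and moved no difference by more than 0.18.

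The reported differences came from probes of 60 bases, and the sequences are shown for 3 genes read by several probes, Pcdh15, Crb1 and Ush1c. Coordinates are those of the array design (mm9), 5′ to 3′ on the transcribed strand. No exon annotation of that build was used here, so exon, intron and UTR are not assigned. The sequences of Pcdh15 are shown because its 7 probes, placed along 1165.5 kb of chromosome 10, were designed on 5 transcript records (probes 3 and 4 share 1 record, as do probes 2 and 6) of a gene known for many splice forms. Probes 4, 5, 2 and 6 are shown whole, and the first 30 bases are shown for probes 7, 3 and 1.
Pcdh15 probe 7 (chr10:72946804-72946863, + strand): ttaattttgtagtactgttgaaagatcttt
Pcdh15 probe 4 (chr10:73969284-73969343, + strand): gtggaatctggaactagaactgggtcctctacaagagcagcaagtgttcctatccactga
Pcdh15 probe 3 (chr10:73970286-73970345, + strand): gctactctatggattttaactctgtcgcac
Pcdh15 probe 5 (chr10:74089451-74089510, + strand): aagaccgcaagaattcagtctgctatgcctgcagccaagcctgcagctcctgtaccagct
Pcdh15 probe 2 (chr10:74105072-74105131, + strand): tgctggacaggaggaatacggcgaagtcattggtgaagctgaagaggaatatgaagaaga
Pcdh15 probe 6 (chr10:74106904-74106963, + strand): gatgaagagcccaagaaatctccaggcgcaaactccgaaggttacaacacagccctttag
Pcdh15 probe 1 (chr10:74112334-74112393, + strand): ccacattttcccaatttctttaccgaaatg
Crb1 and Ush1c are shown because their probes gave different sizes of difference, with the first 30 bases for Crb1 probe 2 and Ush1c probe 1.
Crb1 probe 1 (chr1:141131364-141131423, - strand): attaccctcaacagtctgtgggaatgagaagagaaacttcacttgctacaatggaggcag
Crb1 probe 2 (chr1:141094924-141094983, - strand): ctgtgttcgcctgtcagcctcagaattagc
Ush1c probe 1 (chr7:53450728-53450787, - strand): tcctgctataatccctgatgaaaacctgac
Ush1c probe 2 (chr7:53460570-53460629, - strand): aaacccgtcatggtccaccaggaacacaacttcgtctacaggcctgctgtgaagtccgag

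For a gene with several probes, the reported probe (probe 1) is the one with the brightest Cy5 signal over the 9 arrays. A difference was called when its fold change (FC) was above 2.5 and its Benjamini-Hochberg adjusted p-value, over all 39429 probes, was below 0.01 in limma's moderated test. Of the 19 member probes, 14 were well above background on all 3 arrays of at least 1 layer, 7 on all 9 arrays and 1 on none, and none was saturated.

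RPE was first compared with PR, the layer that faces it. The photoreceptors had the higher level of 5 of the 9 genes, namely Pcdh15, Gpr98, Dfnb31, Crb1 and Crb2, by 2.68-fold to 12.3-fold at the reported probes. Ush1c was the only member called higher in RPE, by 4.18-fold over a PR level near background. Ush1g, Cdh23 and Clrn1 were not called in either direction. In probes, 9 of 19 (47.4%) were called higher in PR, against 5.22% of all probes tested, and 1 of 19 (5.26%) higher in RPE, against 10.2% of all probes. The median RPE minus PR difference was -1.14 over the 19 member probes and -0.01 over all probes.

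**Figure D1:**
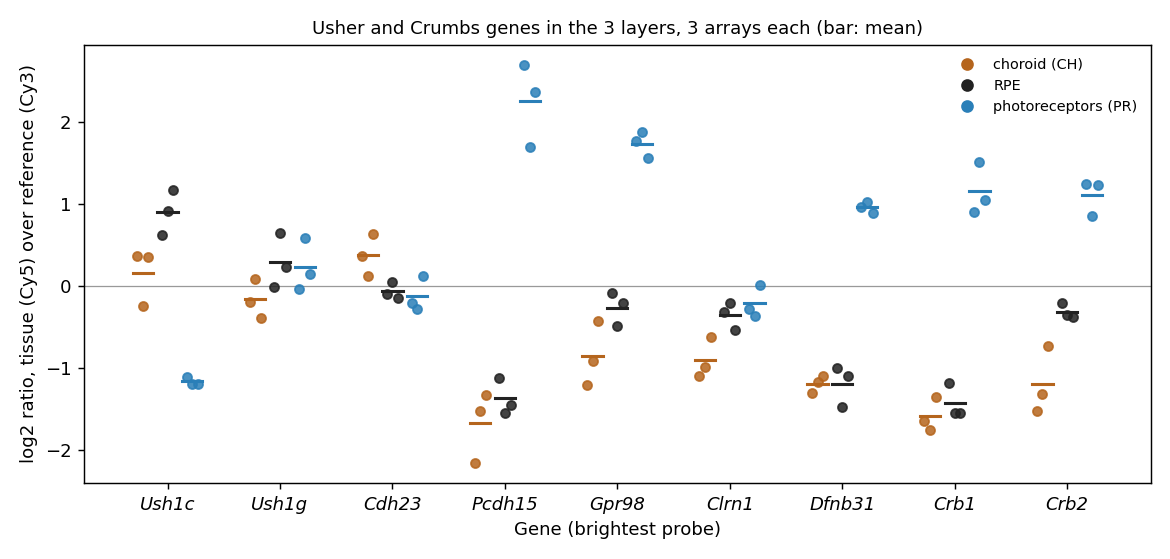
Log2 ratio of tissue (Cy5) over the common reference (Cy3) on the y axis for the brightest probe of each gene on the x axis. Points are arrays, 3 per layer, and bars are means. The PR points of Pcdh15, Gpr98, Dfnb31, Crb1 and Crb2 all lie above the CH and RPE points, whereas those of Ush1c all lie below, at -1.19 to -1.11.

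Ush1c encodes harmonin, the PDZ scaffold at the centre of the type 1 complex. Its ratios were 0.63, 0.91 and 1.17 on the RPE arrays, 0.36, -0.25 and 0.36 on the CH arrays and -1.11, -1.19 and -1.19 on the PR arrays. The 3 layers did not overlap. RPE exceeded PR by 2.06 (SE 0.18, limma adjusted p = 7.5e-06). The PR signal was not well above background on any of the 3 PR arrays, so the size of the fold is uncertain. From the ratios RPE was 4.18-fold higher, with a 95% interval of 3.14-fold to 5.55-fold. On the scale of normalised Cy5 signal the measured means differed by 5.03-fold. RPE exceeded CH by 0.74 (SE 0.18, limma adjusted p = 0.0167), short of the call in both FC and p. CH exceeded PR by 2.49-fold (limma adjusted p = 0.00015), just under the FC limit, and by 2.61-fold on the Cy5 scale. This last difference was called with Feature Extraction's processed signals, where PR minus CH was -2.40. Probe 2, designed on another transcript record, was well above background on only 2 of the 9 arrays, both RPE, and gave an RPE minus PR difference of 0.22 (SE 0.10), which was not called.

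Ush1g encodes Sans, a scaffold that binds harmonin and carries Usher cargo along microtubules. Its single probe was well above background on all 9 arrays. The ratios were -0.19, 0.09 and -0.38 on CH, -0.02, 0.65 and 0.24 on RPE and -0.04, 0.59 and 0.15 on PR. These ranges overlapped in all 3 comparisons. RPE minus PR was 0.06, with a 95% interval of -0.41 to 0.53, so that a difference of more than 1.44-fold lay outside the interval. The interval of RPE minus CH was -0.02 to 0.92 and that of PR minus CH was -0.08 to 0.86.

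Cdh23 encodes cadherin 23, the upper part of the tip link of hair cells. Its probe spans 228 bases of chromosome 10 (chr10:59768489-59768716, - strand), and was well above background on 1 RPE array (RPE 2) and on no CH or PR array. The differences of 0.06 for RPE minus PR and -0.44 for RPE minus CH therefore rest on signal that was not well above background on 8 of the 9 arrays.

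Pcdh15 encodes protocadherin 15, the lower part of the tip link. It showed the largest differences of the 9 genes. At probe 1 the ratios were 2.70, 1.69 and 2.36 on the PR arrays, -1.11, -1.54 and -1.44 on the RPE arrays and -2.16, -1.52 and -1.32 on the CH arrays. Every PR array lay above every array of the other layers, while RPE and CH overlapped. PR exceeded RPE by 3.62 (SE 0.28, 12.3-fold, limma adjusted p = 2.6e-06) and CH by 3.92 (SE 0.28, 15.1-fold, limma adjusted p = 1.2e-06). RPE minus CH was 0.30 (SE 0.28), which was not called.

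Along the gene, 5 of the 7 Pcdh15 probes were called higher in PR than in RPE, and scaling between arrays ended the call at probe 5 (-1.29). The RPE minus PR differences were -2.65 at probe 2, -2.85 at probe 3, -1.60 at probe 5 and -1.70 at probe 6, which correspond to 3.04-fold to 7.21-fold. Probe 4, which lies 1.0 kb upstream of probe 3 and was designed on the same transcript record, differed by -1.14 (SE 0.15, 2.20-fold, limma adjusted p = 0.00014) and missed the FC limit. Probe 7, taken from a brain cDNA clone and lying 1022.5 kb upstream of the next probe, was not well above background on any of the 9 arrays. The 7 probes belong to 1 gene and are not independent measurements. The PR ratios at probe 3 were 2.81, 1.81 and 2.78, again above the RPE ratios of -0.27, -0.43 and -0.45. At probe 5 the lower layers were well above background on only 1 array each, so its difference of 3.04-fold compares a measured PR level with levels near background. The same holds for probe 6, which was well above background on 1 RPE array and on no CH array.

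**Figure D2:**
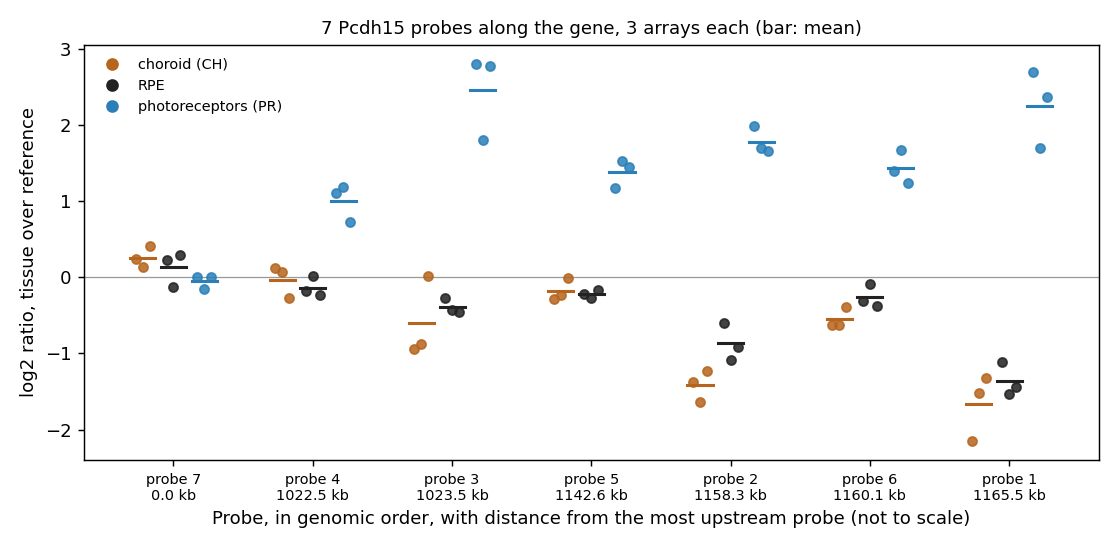
Log2 ratio of tissue over reference on the y axis for the 7 Pcdh15 probes, placed on the x axis in genomic order with their distance in kb from the most upstream probe. Points are arrays and bars are means of 3. The PR points lie above those of CH and RPE at the 6 probes from 1022.5 kb on, and at probe 7, which was not well above background on any array, they do not.

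Gpr98 (Adgrv1) encodes the very large adhesion receptor of the type 2 complex, whose extracellular part forms the ankle links of hair cells. Its ratios were 1.77, 1.88 and 1.56 on the PR arrays, -0.08, -0.49 and -0.21 on the RPE arrays and -1.20, -0.91 and -0.42 on the CH arrays. PR stood clear of both other layers, which overlapped. PR exceeded RPE by 1.996 (SE 0.19, 3.99-fold, limma adjusted p = 1.3e-05) and CH by 2.58 (SE 0.19, 5.98-fold, limma adjusted p = 1.7e-06). RPE minus CH was 0.58 (SE 0.19, limma adjusted p = 0.0559).

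Dfnb31 (Whrn) encodes whirlin, the PDZ scaffold that binds the cytoplasmic tail of GPR98. The PR arrays gave 0.97, 1.02 and 0.89, the RPE arrays -0.997, -1.47 and -1.10 and the CH arrays -1.30, -1.17 and -1.09. PR exceeded RPE by 2.15 (SE 0.13, 4.43-fold, limma adjusted p = 5.2e-07) and CH by 2.15 (SE 0.13, 4.43-fold, limma adjusted p = 4.1e-07). RPE and CH overlapped. Their difference was less than 0.01, with a 95% interval of -0.29 to 0.29.

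Clrn1 encodes clarin 1, the tetraspan membrane protein of type 3. Its probe was well above background on 2 CH, 2 RPE and 3 PR arrays. The ratios were -0.27, -0.36 and 0.02 on PR, -0.32, -0.20 and -0.53 on RPE and -1.09, -0.98 and -0.62 on CH. PR and RPE overlapped, and both lay above CH. PR minus CH was 0.69 (SE 0.15, 1.61-fold, limma adjusted p = 0.0034), below the FC limit, and RPE minus CH was 0.55 (SE 0.15, limma adjusted p = 0.030). RPE minus PR was -0.14, with a 95% interval of -0.49 to 0.20.

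Crb1 ratios at probe 1 were 0.90, 1.52 and 1.05 on the PR arrays, -1.18, -1.55 and -1.55 on the RPE arrays and -1.64, -1.75 and -1.35 on the CH arrays. PR was separate, and RPE and CH overlapped. PR exceeded RPE by 2.58 (SE 0.18, 5.97-fold, limma adjusted p = 1.5e-06) and CH by 2.74 (SE 0.18, 6.66-fold, limma adjusted p = 7.6e-07).

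Crb2, its paralog, had ratios of 1.24, 0.86 and 1.24 on PR, -0.21, -0.35 and -0.38 on RPE and -1.52, -1.31 and -0.72 on CH. The 3 layers did not overlap, in the order PR, RPE, CH. PR exceeded RPE by 1.42 (SE 0.19, 2.68-fold, limma adjusted p = 0.00016) and CH by 2.30 (SE 0.19, 4.92-fold, limma adjusted p = 4.4e-06). The call against RPE was lost with the slide as a fixed block (-1.25 for RPE minus PR, limma adjusted p = 0.0115) and when the arrays were scaled to a common spread (-1.19). RPE exceeded CH by 0.87 (SE 0.19, limma adjusted p = 0.0105), which missed the call.

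Both Crumbs genes are known in photoreceptors and in Müller glia. The 7 Müller glia markers averaged log2 ratios of -2.32 to -1.25 on the PR arrays, -1.75 to -1.06 on the RPE arrays and -1.24 to -0.86 on the CH arrays. None of them was called higher in PR than in RPE, and 2 (Glul and Dkk3) were called higher in RPE, by 2.25 and 1.40. The others included Slc1a3 (-0.69), Crym (-0.70) and Kcnj10 (-0.42) for RPE minus PR, none of which was called. The list's median RPE minus PR difference, at the brightest probe of each of the 7 genes, was -0.42. Their mean normalised Cy5 level (log2) was 12.2 to 13.1 on PR, 12.4 to 13.0 on RPE and 12.8 to 13.2 on CH.

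The arrays lay on 3 slides, 1 of which held an array of every layer (CH 2, RPE 2 and PR 2). Another held only PR 1 and PR 3, and the third only CH and RPE arrays, so for 2 of the 3 PR arrays slide and layer cannot be told apart. Within the slide with all layers RPE minus PR was 2.10 for Ush1c, -3.23 for Pcdh15, -2.36 for Gpr98, -2.49 for Dfnb31, -3.07 for Crb1 and -1.20 for Crb2. All 6 kept their direction, and Crb2 fell below the FC limit. No test is possible within it, since it held 1 array per layer.

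**Figure D3:**
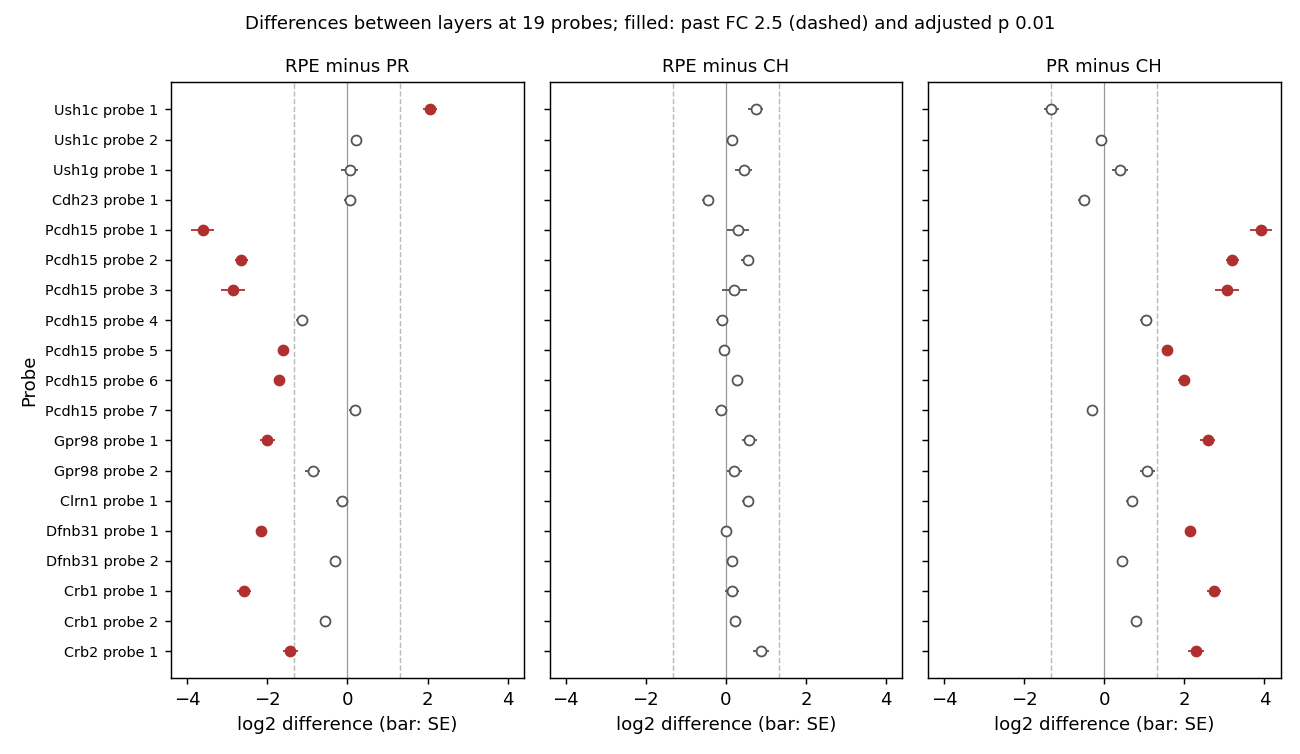
Log2 differences between layers on the x axes (bars are SE) for the 19 member probes on the y axis. Filled points passed FC 2.5 (dashed lines) and adjusted p 0.01. In RPE minus PR there are 9 filled points below 0 and 1 above, in RPE minus CH there are none, and in PR minus CH there are 9 above 0.

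RPE was next compared with CH, the layer behind it. No member probe was called in either direction. Of all probes, 0.185% were called higher in RPE and 1.55% higher in CH. Without the FC limit, 4 member probes passed an adjusted p-value of 0.05 in limma, all higher in RPE (Ush1c probe 1, Pcdh15 probe 2, Clrn1 and Crb2, by 0.55 to 0.87). These are 21.1% of the member probes, against 22.4% of all probes in either direction and 11.2% higher in RPE. At an unadjusted p-value of 0.05, 6 member probes passed (31.6%), against 33.6% of all probes. The median RPE minus CH difference was 0.21 over member probes and 0.04 over all probes. Within the slide that held 2 arrays of each of these layers, RPE minus CH was 0.54 for Ush1c, 0.43 for Clrn1 and 0.83 for Crb2. On the slide with 1 array of each it was 1.16, 0.78 and 0.97.

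The comparison of PR with CH uses the same PR arrays as the first one, and is therefore no independent support of it. Here 9 of 19 member probes (47.4%) were called higher in PR, from Pcdh15, Gpr98, Dfnb31, Crb1 and Crb2, against 6.4% of all probes. None was called higher in CH, against 12% of all probes. The median PR minus CH difference was 1.07 over member probes and 0.06 over all probes. In this comparison, 17 member probes (89.5%) passed an unadjusted p-value of 0.05 in limma, against 58.0% of all probes.

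In RPE against PR, the second probes of Ush1c, Gpr98, Dfnb31 and Crb1 differed in the same direction as the first, at a smaller size. For Crb1, RPE minus PR was -2.58 at probe 1 and -0.56 (SE 0.12, limma adjusted p = 0.0036) at probe 2. The PR ratios at Crb1 probe 2 were -0.75, -0.50 and -0.81, against -1.05, -1.42 and -1.28 on RPE and -1.56, -1.47 and -1.39 on CH. Its signal was well above background on 3 CH, 2 RPE and 3 PR arrays. For Gpr98 the difference was -1.996 at probe 1 and -0.87 (SE 0.19, limma adjusted p = 0.0031) at probe 2, which was well above background on 2 PR arrays, 1 RPE array and no CH array. For Dfnb31 it was -2.15 and -0.31 (SE 0.09, limma adjusted p = 0.0162), with probe 2 above background on 1 RPE and 1 PR array.

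The gap between the probes of a gene was compared across layers, array by array. In Crb1, probe 1 minus probe 2 was 1.65 to 2.02 on the PR arrays and -0.26 to -0.12 on the RPE arrays. The ranges of RPE and PR did not overlap in Ush1c, Gpr98, Dfnb31 or Crb1. An exact permutation test of 3 arrays against 3 (two-sided) gave p = 0.1 in each of these 4 genes, and 0.15 after adjustment over the 12 comparisons made. As 0.1 is the smallest p-value this design allows, the test cannot decide whether the probes differ. Probe 1 was also chosen as the brighter probe on these same arrays, so its larger gap is not independent of that choice.

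**Figure D4:**
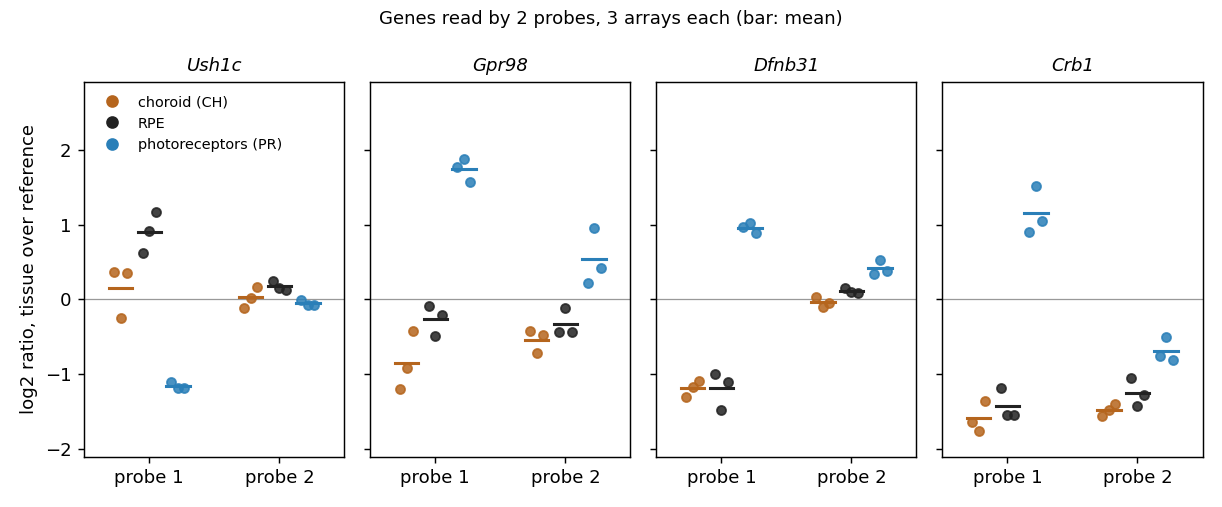
Log2 ratio of tissue over reference on the y axis at both probes (x axis) of Ush1c, Gpr98, Dfnb31 and Crb1. Points are arrays and bars are means of 3. The PR points stand apart from RPE more at probe 1 than at probe 2 in all 4 genes, and for Crb1 the RPE minus PR difference shrinks from -2.58 to -0.56.

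A list of Usher proteins, binding partners and related genes held 11 other genes. Of these, 3 were called higher in RPE than in PR, 3 higher in PR, and 5 were not called. For this and the following lists, 10.2% of all probes were called higher in RPE and 5.22% higher in PR. A listed gene counts as called at any of its probes. Myo7a, the type 1 myosin motor that moves melanosomes in RPE, was higher in RPE by 2.26 (SE 0.08, limma adjusted p = 3.0e-08) and differed from CH by only -0.04. Its links to these melanosomes run through Myrip, which was higher in RPE by 2.24. Arsg, a lysosomal sulfatase, was higher by 1.39. In the other direction stood Cdhr1, a cadherin of photoreceptor discs (RPE minus PR -3.17). Slc4a7, a bicarbonate transporter that binds harmonin, differed by -3.26 and Vezt, a junctional protein that binds Myo7a, by -1.55. The second Slc4a7 probe, well above background in every layer, gave -1.18 (SE 0.66, limma adjusted p = 0.17) and was not called. Pdzd7, a further type 2 scaffold, gave -0.01, and was not called. Its brightest probe was well above background on only 1 RPE and 1 PR array, so this value is no measure of equal levels. The list's median RPE minus PR difference was -0.002, beside -0.007 over all probes. Against CH, Cdhr1, Slc4a7 and Vezt were called higher in PR and Myo7a higher in CH.

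Of 15 stereocilia genes of hair cells, 12 were not called between RPE and PR. Of those, Tmc1, Ptprq and Strc were well above background on no array. Grxcr1 was so on 1 CH array only, and Myo3a on 1 CH and 1 RPE array. The differences of these genes are therefore no measure of equal levels. Tmie, a part of the transduction channel complex, was higher in RPE by 1.601. Eps8, which caps and bundles actin, and Myo15, the motor that carries whirlin to stereocilia tips, were higher in PR, with RPE minus PR of -2.49 and -1.35. The second Eps8 probe gave -1.60 and was also called. The list's median was 0.03, with the genes near background included.

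Of 17 Crumbs complex and polarity partners, 2 were called higher in RPE, 3 higher in PR, and 12 were not called. Crb3, the short Crumbs paralog of most epithelia, was higher in RPE than in PR by 1.41 (SE 0.17, limma adjusted p = 7.6e-05), opposite in direction to Crb1 and Crb2. Its second probe gave 1.03, below the FC limit. Pard6g, a Par6 polarity protein, was higher in RPE by 2.22. Mpp4, a photoreceptor scaffold of the MAGUK family, had an RPE minus PR difference of -3.44 (SE 0.22), Lin7b one of -1.43 and Mpdz, a multi-PDZ scaffold, one of -1.34. The second Mpp4 probe gave -2.28 and was also called. Mpp5 (Pals1), the scaffold that binds the Crumbs tail, gave 0.50 (SE 0.40) and was not called. The list's median RPE minus PR difference was -0.31. Against CH, 5 genes of the list were called higher in PR and 2 higher in CH, with a median PR minus CH difference of 0.72 beside 0.06 over all probes. Of all probes, 6.4% were called higher in PR than in CH and 12% higher in CH.

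Of 10 adherens junction genes, 3 were called higher in RPE than in PR. These were Jam3, a junctional adhesion molecule (2.96), and the catenins Ctnnd1 (2.13) and Ctnna1 (1.71). Jam2 was higher in PR, with RPE minus PR of -1.52, while its second probe gave -0.79, below the FC limit. The other 6 were not called, among them Mllt4, which was well above background on no array. The list's median was 0.52. In all 4 lists together no gene was called between RPE and CH. Calls are rare in that comparison, at 0.185% of all probes higher in RPE and 1.55% higher in CH.

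**Figure D5:**
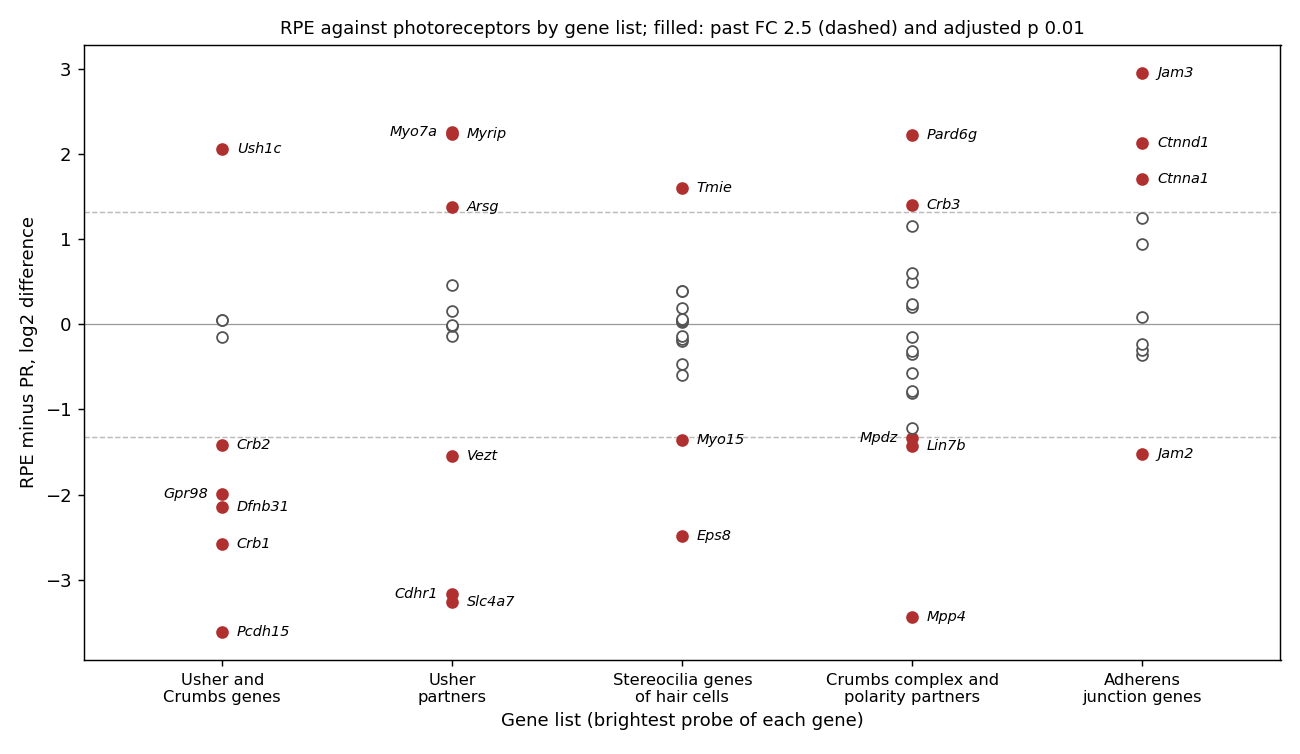
RPE minus PR log2 difference on the y axis at the brightest probe of each gene, by gene list on the x axis. Filled points passed FC 2.5 (dashed lines) and adjusted p 0.01 and are named. Myo7a (2.26), Crb3 (1.41) and Ush1c (2.06) lie above 0, while Slc4a7 (-3.26) and Mpp4 (-3.44) lie below 0 with Pcdh15.

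The pattern of a gene over the 9 arrays was compared with that of other genes by the root mean square difference of their ratios, each centred on its own mean. Clone names, provisional names and olfactory receptors were left out of the search. So were probes not well above background on all 3 arrays of at least 1 layer. The genes most like Pcdh15 were Pcmtd2 (0.14), Pitpnm3 (0.16) and Tnfaip3 (0.17). Among the genes nearest to Gpr98 were Cyp4f41-ps (0.09) and Ttll11 (0.11). Nearest to Dfnb31 were Lmnb1 (0.08), Zfp78 (0.09) and Zfp472 (0.09). Crb1 was closest to Ntm (0.09), Drd4 (0.13) and Nrm (0.13), and Crb2 to Vldlr (0.11), Cpe (0.13) and Ppp3cc (0.15). Ush1c was closest to Ppp1r1b (0.13), Dnajc22 (0.14) and Adc (0.14). Among the members, Gpr98 and Dfnb31 were closest to each other (0.29), followed by Gpr98 and Crb2 (0.30), Dfnb31 and Crb1 (0.31), and Gpr98 and Crb1 (0.31). The most distant pair was Ush1c and Pcdh15 (2.62).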

How the data were processed

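Two-colour Agilent arrays of laser-dissected mouse CH, RPE and PR (3 each) were used. The deposited scanner files hold spot intensity values that the authors extracted with Feature Extraction 9.5.3.1; the authors then used limma in R 2.14.0. The deposited table of the whole series, on a log2 scale, followed the Cy5 signal alone (column medians 9.38 to 9.55) and served only as an alternative. Here, mean signals were background corrected (normexp, offset 50) against the median background and loess normalised within each array with limma 3.58.1 in R 4.3.3. Control spots got no weight, spots marked as outliers (228 to 586 per array) were left out, and repeated spots were averaged to 39429 probes. A model of group means over 9 arrays was fitted with limma, with FC above 2.5 and adjusted p below 0.01 as in the methods. Dyes were not swapped, so dye bias of a probe cancels only between layers. Eyes were separate samples per the methods. The number of arrays limits the precision. The 95% intervals come from the same fit.

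Members and gene lists were chosen with earlier results of these data known. All members and probes are reported. Of each list, up to 4 genes per direction with the largest called difference at the brightest probe are named, plus Myo7a, Crb3 and Mpp5; some genes that the rules would name are not reported here, and the counts of the Usher list leave them out. Other marker lists (cones, inner retina, pigment cells, endothelium, immune cells) were checked too. Cone markers averaged 2.63 to 2.78 on PR and -1.33 to -0.50 on the other arrays. Inner retina markers averaged -1.68 to -0.82 on PR, -1.88 to -1.47 on RPE and -2.18 to -1.86 on CH. Of these 12 markers, 3 (Prkca, Grm6 and Pcp2) were called higher in PR than in RPE, and also than in CH. The other 9 were called in neither comparison. The part of inner retina RNA in the PR values was not tested. Pigment cell, endothelium and immune markers averaged -3.58 to -2.07 on PR. The samples were treated as unpaired. Correlations of deviations between layers were -0.08 to 0.29 for same-numbered arrays and -0.31 to 0.25 for the others. These cannot settle whether replicate numbers pair the samples, since CH 2, RPE 2 and PR 2 also shared a slide. The fit was tested on simulated data. Alternatives covered background, normalisation, the Cy5 channel alone, slide blocks, spot filters, weights, thresholds and each array left out.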

Additional observations from a re-analysis of the deposited data

How the results depend on the processing

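The count of member probes called higher in RPE than in PR was 1 under all 28 alternatives, and that higher in PR ranged from 7 to 13. No member probe was called between RPE and CH, except that 4 were higher in RPE at an adjusted p of 0.05 with no FC limit, where the PR against CH counts were 14 higher in PR and 2 higher in CH (28.5% and 25.3% of all probes). Ush1c raised the count higher in CH than in PR from 0 to 1 with normexp offset 16, no background correction, processed signals, median centring, the Cy5 signal alone, the series table and FC above 2, and the counts with 1 array left out ran from 0 to 1 (1 without CH 2 and without PR 1, 0 otherwise). For the pathway list probes, FC above 2 gave 3 higher in RPE than in CH, beside 410 of all 39429 probes. An adjusted p of 0.05 with no FC limit gave 17 (RPE above PR), 24 (PR above RPE) and 17 (RPE above CH). It also gave 3 (CH above RPE), 29 (PR above CH) and 17 (CH above PR). Of all probes 24.7%, 25.6%, 11.2%, 11.3%, 28.5% and 25.3% passed, in the same order. Leaving out 1 array gave 0 to 1 list probes higher in RPE than in CH (1 without CH 3). With the replicate block, no call on a member probe changed and the count higher in PR than in RPE stayed 9; the labels do not say whether same-numbered samples share an animal. The PR share of all RPE against PR calls was 33.7%, and 45.5% with processed signals. Between PR and CH it was 34.8% and 46.5%.

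Differences near 0 that were called under no setting changed sign. Ush1g RPE minus PR was -0.28 (processed signals) and -0.14 (median centring), and -0.12 (without RPE 2) to 0.23 (without PR 2) with 1 array left out. Clrn1 RPE minus PR was 0.12 (Cy5 alone), 0.12 (series table) and 0.044 (slide fixed block). Cdh23 RPE minus PR was -0.061 (array weights), and -0.022 (without PR 2) to 0.18 (without PR 3). Pcdh15 RPE minus CH at probe 5 was 0.21 (processed signals), 0.057 (median centring) and 0.0084 (array weights), and -0.098 to 0.041 with 1 array left out. At probe 7 it was -0.21 to 0.00024 with 1 array left out. Dfnb31 RPE minus CH was 0.00050 (no background correction), 0.023 (processed signals), 0.015 (Cy5 alone) and 0.097 (array weights), and -0.098 to 0.14 (without RPE 2) with 1 array left out. Scaling between arrays ended both Pcdh15 probe 5 calls (-1.29 and 1.24). Cdh23 and the second probes of Ush1c, Gpr98 and Dfnb31 lie near background in most layers, which limits what their differences can show. The cause of these changes was not tested.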
